A study of Mus musculus with 32 samples.

Results

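MLL-AF9 leukaemia cells were compared with normal adult haematopoietic stem cells (HSCs) of the mouse, in 7 of the 32 RNA libraries of the series. The leukaemia group was 3 libraries of ex vivo MLL-AF9 cells taken from moribund mice, wild type for PRDM16 and carrying an empty vector. The HSC group was 4 libraries of wild-type adult bone marrow cells sorted as Lin-cKit+Sca1+CD48-. These libraries were chosen by the labels alone, and genes were matched by the 22003 gene symbols that both count tables list. A second set of 7 libraries with the same contrast, 3 labelled as PRDM16-KO MLL-AF9 cells with empty vector and 4 labelled as PRDM16-KO adult HSCs, was compared in the same way. The labels give no age beyond adult, no strain, no vector backbone and no number of donor or recipient mice per library. The design text speaks of independent replicates, but nothing says that the leukaemia libraries came from separate transductions, so p-values measure the spread between these libraries.

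MLL-AF9 is the product of a chromosomal translocation that joins the start of the histone methyltransferase MLL (Kmt2a) to AF9 (Mllt3), a subunit of a complex that releases paused RNA polymerase. The fusion keeps HOXA genes and their partner Meis1 switched on in blood progenitors and gives a myeloid leukaemia with some granulocytic and monocytic maturation. Normal HSCs sit at the top of the blood lineage, divide rarely, and are held by transcription factors such as Hlf, Mecom and Gata2. Kmt2a is not among the shared symbols and was not analysed here, so the fusion transcript itself was not measured.

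Library preparation differed between the groups: plain TruSeq poly-A for leukaemia, and a SMARTer low-input amplification before TruSeq for HSCs. Preparation and cell type therefore cannot be told apart, and a gene was called large only where the log2 difference was at least 3, which is 8-fold, and the edgeR quasi-likelihood adjusted p was under 0.05. Library totals were 16353584 to 20970801 counts for leukaemia and 25144746 to 29343602 for HSCs. Correlations of log2 CPM across genes were 0.989 to 0.993 among leukaemia libraries, 0.960 to 0.981 among HSC libraries and 0.872 to 0.887 between the groups. Of 13275 genes tested, 2567 (19.3%) were called large, 922 (6.95%) higher and 1645 (12.4%) lower in leukaemia. These shares are the background for the list counts below. Without the 8-fold limit 4006 (30.2%) were higher and 4314 (32.5%) lower, with a median log2 difference of -0.043 over all genes tested. In bulk RNA, fewer cells of a kind and less RNA per cell cannot be told apart. Values are counts per 1000000 (CPM) after TMM scaling, in the order of replicates 1 to 3 for leukaemia and 1 to 4 for HSCs, and log2 differences are leukaemia minus HSC with their standard error.

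**Figure D1:**
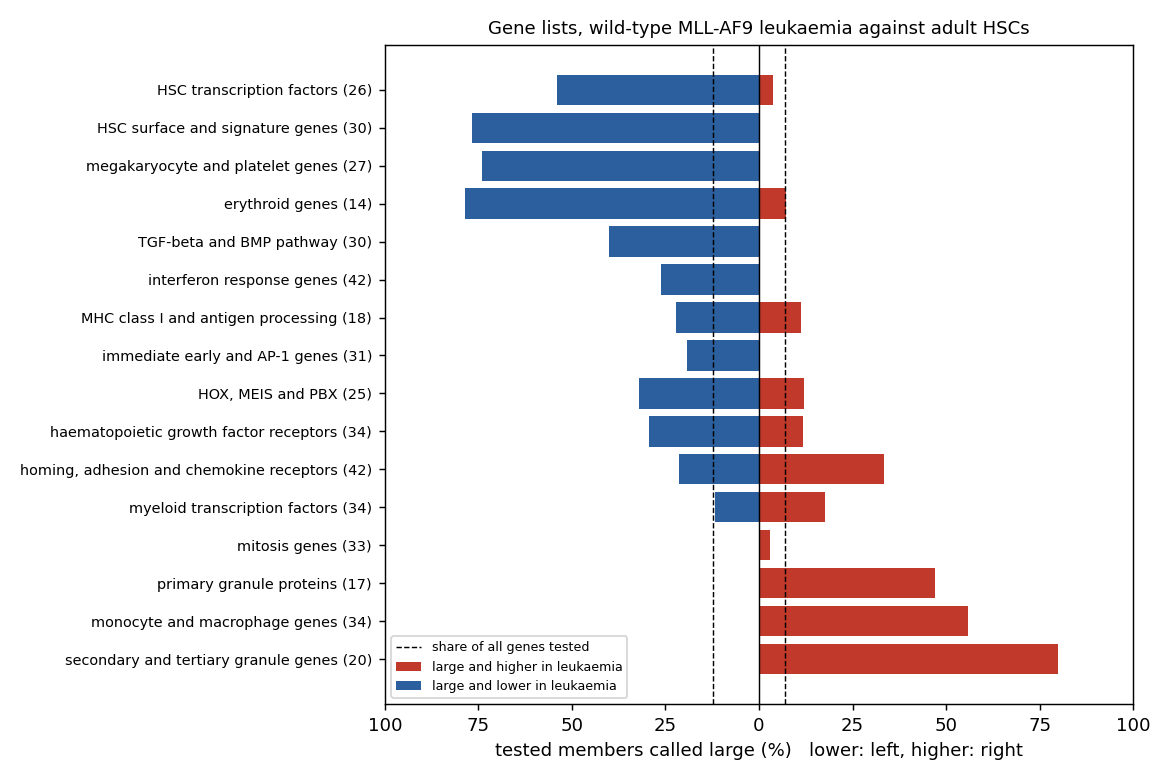
Percentage of tested members of 16 gene lists called large and higher (right, red) or lower (left, blue) in wild-type MLL-AF9 leukaemia than in wild-type adult HSCs; dashed lines mark 6.95% and 12.4%, the shares over all 13275 genes. HSC, megakaryocyte and erythroid lists lie to the left, and granule and monocyte lists to the right.

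Many transcription factors known for HSC function were far lower in leukaemia. Of 26 such genes tested, 14 were called large and lower and 1 large and higher, beside 12.4% and 6.95% of all genes tested, with a median log2 difference of -5.07. The list was chosen with earlier results of these data known, as were all lists here, so a list's direction is a description. From many lists the genes named were large calls with the smallest p, so their lack of overlap is also a description. Hlf, a PAR-family leucine zipper factor that maintains HSCs, stood at 0.205, 0.797 and 0.802 CPM in leukaemia and 469, 353, 344 and 202 CPM in HSCs. Its log2 difference was -9.11 ± 0.50 (adjusted p = 2.8e-07), and the groups lay far apart. Mecom, which encodes the EVI1 zinc finger protein related to PRDM16, gave 0, 0.491 and 1.15 against 168, 93.9, 153 and 79.97 CPM (-7.76 ± 0.68, adjusted p = 5.3e-06). Gata2, a zinc finger factor of stem and progenitor cells, was lower but still present, at 23.99, 23.2 and 15.8 against 804, 764, 659.7 and 522 CPM (-5.03 ± 0.28, adjusted p = 3.2e-07).

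Several of these factors were at or near 0 counts in leukaemia. Nkx2-3, a homeobox factor, had 0 counts in the 3 leukaemia libraries and 138, 136, 117 and 69.2 CPM in HSCs, at least 1869-fold lower, where a group at 0 is set to 3 counts over the group. Mycn, the MYC family member used by immature blood cells, had 1 count in leukaemia over 3 libraries against 281, 200.4, 251 and 268 CPM in HSCs, a ratio of HSC to leukaemia of 12050.0 (2162 to 475900.0) with its 95% counting interval. Such intervals and bounds cover counting error only. Hoxb5, a homeobox gene used to mark long-term HSCs, had 0 counts against 16.2, 23.9, 14.4 and 16.1 CPM, at least 288-fold lower. Tal1, a helix-loop-helix factor that forms a complex with GATA factors, was at 0.137, 0 and 0.286 against 39.6, 70.2, 50.8 and 43.004 CPM (-8.41 ± 0.57, adjusted p = 9.2e-07). Gfi1b, a repressor of stem cells and of the megakaryocyte and red cell lineages, was at 0.205, 0 and 0.115 against 114, 151, 133 and 148 CPM (-10.29 ± 0.45, adjusted p = 8.0e-08). Leukaemia was below every HSC library for each of these 5 genes.

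The decrease did not cover the whole group. Lyl1, the close relative of Tal1, was the member called large in the other direction, at 304, 309.7 and 266 CPM in leukaemia and 17.7, 44.3, 19.6 and 28.2 CPM in HSCs (3.41 ± 0.31, adjusted p = 6.8e-06). Tal1 and Lyl1 thus lay in opposite directions. Erg and Ets1, factors of the ETS family, were higher by 1.08 ± 0.28 and 2.75 ± 0.33 (adjusted p = 0.00664 and 4.3e-05), below the 8-fold limit. Runx1, Fli1, Lmo2 and Etv6, shared by stem cells and many later blood cells, differed by -0.81 ± 0.29, -0.12 ± 0.23, -1.03 ± 0.25 and -0.75 ± 0.26. None of these 4 reached the limit, and Fli1 did not pass the test (adjusted p = 0.663).

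**Figure D2:**
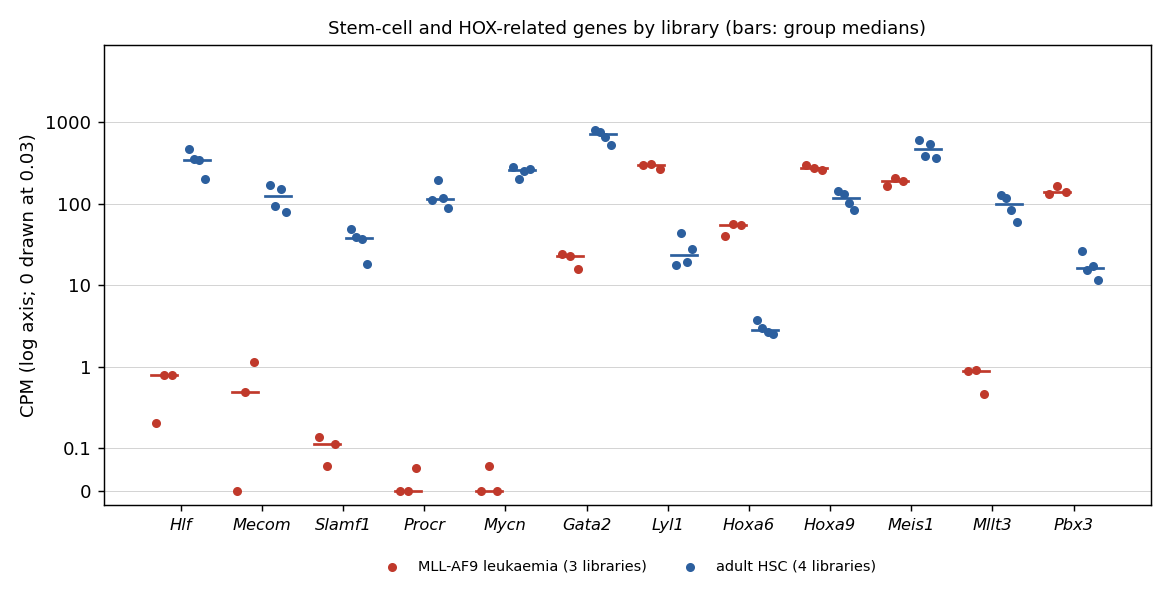
CPM of 12 stem-cell and HOX-related genes in each of 3 leukaemia (red) and 4 HSC (blue) libraries, on a log axis with 0 drawn at 0.03; bars are group medians. Hlf, Mecom, Slamf1, Procr, Mycn and Mllt3 lie far lower in leukaemia, Lyl1, Hoxa6 and Pbx3 lie the other way, and Meis1 and Hoxa9 differ less.

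Surface and signature genes of HSCs were lower too. Of 30 tested, 23 were large and lower and 0 large and higher, with a median of -5.31. Their summed level was 511 to 553 CPM in leukaemia and 5901 to 7300.5 CPM in HSCs. No member was at 0 over the HSC libraries. Procr, the EPCR protein used to isolate HSCs, had 1 count in leukaemia against 112, 196, 118 and 88.5 CPM, a ratio of 6316 (1133 to 249500.0). Slamf1, which encodes CD150, was at 0.137, 0.0613 and 0.115 against 49.8, 38.9, 36.6 and 18.1 CPM (-8.36 ± 0.55, adjusted p = 8.1e-07). Tek, the angiopoietin receptor TIE2, gave 2 counts in leukaemia against 104, 40.7, 93.6 and 62.996 CPM, a ratio of 1805 (499.6 to 14910.0). No leukaemia library was above 0.137 CPM for Procr, Slamf1 or Tek.

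Other members of the signature were lower while still expressed. Cd34 varied within leukaemia, at 102, 73.6 and 7.84 CPM against 702, 773, 831 and 1048 CPM (-3.78 ± 0.69, adjusted p = 7.8e-04), and replicate 3 was the low library. Angpt1, the ligand of TIE2, was at 79.8, 76.3 and 81.9 against 776, 481, 612 and 277 CPM and stayed under the limit (-2.76 ± 0.33, adjusted p = 4.7e-05). Abcg2, the dye and drug pump behind the side-population assay, was at 11.4, 9.63 and 14.8 against 135, 93.6, 168 and 133 CPM (-3.47 ± 0.27, adjusted p = 2.5e-06). Gpr56, an adhesion receptor and one of the 5 genes with the highest mean CPM in HSCs, was at 33.4, 77.2 and 24.6 against 3979, 3153, 4375 and 3524 CPM (-6.38 ± 0.47, adjusted p = 1.7e-06). Kit and Ly6a, which encodes Sca1, were antibody targets of the HSC gate, so their levels there are no finding. They stood at 230.1, 329 and 246 against 1196, 447, 1539.9 and 809 CPM and at 1.03, 3.07 and 0.573 against 122, 187, 156 and 228 CPM.

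Most tested genes of the HOXA cluster were higher in leukaemia, few of them by 8-fold, and most of the HOXB cluster were far lower. HOX proteins are homeobox factors that set identity along the body axis and self-renewal in blood, and they bind DNA with MEIS and PBX partners. Of 37 HOX, MEIS and PBX genes 25 were tested: 3 were large and higher, 8 large and lower, and the median was 0.57. Of 10 HOXA genes tested 2 were large and higher and 0 large and lower, and of the 7 HOXB genes of the list 0 and 6. Hoxa9, the best known target of MLL fusions, was at 299.8, 275 and 259.9 CPM in leukaemia and 146, 131, 102 and 84.2 CPM in HSCs. This difference of 1.26 ± 0.21 (adjusted p = 5.0e-04) was under the 8-fold limit. Hoxa10 gave 208, 238 and 239.99 against 72.3, 66.7, 53.9 and 88.6 CPM (1.70 ± 0.20, adjusted p = 4.2e-05). Hoxa5 gave 141, 213 and 209 against 28.4, 34.01, 19.1 and 12.8 CPM, a difference of 2.99 ± 0.32 (adjusted p = 2.3e-05) that just misses the limit. Hoxa6 passed it, at 39.98, 57.02 and 55.6 against 3.75, 2.99, 2.65 and 2.57 CPM (4.09 ± 0.26, adjusted p = 6.6e-07).

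Within the A cluster the differences were 1.49 ± 0.42 for Hoxa2, 2.43 ± 0.31 for Hoxa3, 2.52 ± 0.47 for Hoxa4 and 0.57 ± 0.30 for Hoxa7, of which the last did not pass the test (adjusted p = 0.117). Hoxa11 was at 7.65, 5.46 and 15.4 CPM in leukaemia and 0 in all 4 HSC libraries, at least 360.2-fold higher. Antisense transcripts overlap Hoxa11 and are listed under different names in the 2 tables, so this gene is uncertain. The B cluster ran the other way: Hoxb2, with 1 count in leukaemia against 17.7, 21.6, 17.9 and 27.5 CPM, had a ratio of HSC to leukaemia of 1023 (183 to 40400.0). Hoxb6 had 0 counts against 3.26, 9.997, 4.17 and 4.30 CPM, at least 89.5-fold lower. Hoxb4, widely used to expand HSCs, was at 1.64, 1.04 and 1.72 against 5.20, 8.004, 3.60 and 3.51 CPM (-1.79 ± 0.50, adjusted p = 0.0095). Hoxb13, at the far end of that cluster, is in no list here and is named after its values were seen. It lay the other way, at 4.44, 4.35 and 4.70 CPM in leukaemia with 0 counts in all 4 HSC libraries (adjusted p = 7.7e-05), and the leukaemia libraries labelled PRDM16-KO were at 3.75, 3.57 and 9.40 CPM with 0 counts in their 4 HSC libraries. Hoxb7 was called large and lower although its groups overlapped. Of the 6 HOXC and 4 HOXD genes of the list 0 were tested, and no wild-type library was above 1.32 CPM for any of them.

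Partners of HOX proteins differed among themselves. Meis1, a cofactor of Hoxa9 in MLL leukaemia, was expressed in both groups and lower in leukaemia, at 168, 205 and 189 against 607, 391, 549.8 and 369 CPM (-1.35 ± 0.23, adjusted p = 5.3e-04). Pbx3, a DNA-binding partner of HOX proteins, was higher, at 131, 168 and 141 against 26.3, 15.5, 17.4 and 11.5 CPM (3.05 ± 0.27, adjusted p = 6.2e-06). Every leukaemia library lay above every HSC library. Pbx3 ended under the limit without leukaemia replicate 2, HSC replicate 2 or HSC replicate 4, at 2.97, 2.98 and 2.80.

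Other genes tied to MLL fusions were called about as often as genes in general. Of 34 tested, 3 were large and higher and 5 large and lower, beside 6.95% and 12.4% of all genes tested (median 0.48). Six4, a homeobox factor of embryonic development, stood at 57.7, 98.5 and 118 CPM in leukaemia and 0, 0, 0.607 and 0.717 CPM in HSCs (8.13 ± 0.83, adjusted p = 1.5e-05). Igf2bp3, an RNA-binding protein of fetal tissue, gave 118, 196 and 155 against 1.42, 1.99, 0.872 and 1.96 CPM (6.64 ± 0.33, adjusted p = 1.6e-07), and its value is uncertain because it overlaps gene names that only 1 of the count tables lists. Mllt3, the mouse gene for AF9 and itself an HSC maintenance factor, was lower, at 0.888, 0.920 and 0.458 against 128, 117, 84.9 and 59.5 CPM (-7.01 ± 0.42, adjusted p = 4.4e-07).

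Genes of granulocytes were higher. Primary granules are the first to form, in promyelocytes, and carry serine proteases and myeloperoxidase. Of 17 such genes tested, 8 were large and higher and 0 large and lower (median 2.83). Elane, neutrophil elastase, was at 2758, 2945 and 3740.2 CPM in leukaemia and 57.9, 42.6, 14.3 and 44.3 CPM in HSCs (6.31 ± 0.45, adjusted p = 1.4e-06). Ctsg, cathepsin G, was at 2116, 1848 and 1489.6 against 18.6, 15.5, 4.74 and 13.2 CPM (7.12 ± 0.46, adjusted p = 6.8e-07). Mpo, myeloperoxidase, was at 1218, 1958 and 1207 against 292, 198, 44.9 and 185 CPM and only just passed the limit (3.02 ± 0.50, adjusted p = 4.0e-04). It was under the limit without leukaemia replicate 2, HSC replicate 3 or HSC replicate 4, at 2.78, 2.68 and 2.94. Prtn3, proteinase 3, had 263, 311, 212 and 269 CPM in HSCs and 1849.5, 1723 and 1890.2 CPM in leukaemia, under the limit (2.79 ± 0.20, adjusted p = 1.6e-06). Transcripts of all 4 were present in the HSC libraries, and in each case every leukaemia library was above every HSC library. Lyz2, lysozyme of mature myeloid cells, did not follow them, at 284, 181 and 329 against 355, 442, 420.3 and 476 CPM (-0.68 ± 0.23, adjusted p = 0.0267).

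Promoters of 3 primary granule genes that were higher together and of 1 platelet gene that was lower are printed from RefSeq (GRCm38.p6, from 250 bases before to 50 bases after the start). Capitals mark exact matches on either strand to the letters TTGCNNAA (the core bound by C/EBP factors), AGATAA (the core of the erythroid GATA family) or GAGGAAGT (the core bound by PU.1).
Elane (chr10:79886062-79886361, plus strand): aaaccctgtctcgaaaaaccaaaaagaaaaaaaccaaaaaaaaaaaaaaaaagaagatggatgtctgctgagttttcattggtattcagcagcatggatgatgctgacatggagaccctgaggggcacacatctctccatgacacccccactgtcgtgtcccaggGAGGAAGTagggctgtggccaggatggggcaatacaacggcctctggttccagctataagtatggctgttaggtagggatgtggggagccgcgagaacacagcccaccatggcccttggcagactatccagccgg
Mpo (chr11:87793534-87793833, plus strand): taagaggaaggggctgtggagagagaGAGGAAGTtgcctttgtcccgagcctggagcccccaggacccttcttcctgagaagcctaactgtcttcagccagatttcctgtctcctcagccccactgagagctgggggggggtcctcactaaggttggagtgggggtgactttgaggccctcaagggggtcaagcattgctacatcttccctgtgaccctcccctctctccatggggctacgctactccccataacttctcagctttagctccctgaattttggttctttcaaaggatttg
Ctsg (chr14:56102525-56102824, minus strand): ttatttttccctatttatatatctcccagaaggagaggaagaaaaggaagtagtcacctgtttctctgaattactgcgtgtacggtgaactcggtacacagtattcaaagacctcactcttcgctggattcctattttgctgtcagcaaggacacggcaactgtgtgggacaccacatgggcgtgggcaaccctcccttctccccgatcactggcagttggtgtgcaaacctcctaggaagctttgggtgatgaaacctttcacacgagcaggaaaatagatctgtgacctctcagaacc
Pf4 (chr5:90772185-90772484, plus strand): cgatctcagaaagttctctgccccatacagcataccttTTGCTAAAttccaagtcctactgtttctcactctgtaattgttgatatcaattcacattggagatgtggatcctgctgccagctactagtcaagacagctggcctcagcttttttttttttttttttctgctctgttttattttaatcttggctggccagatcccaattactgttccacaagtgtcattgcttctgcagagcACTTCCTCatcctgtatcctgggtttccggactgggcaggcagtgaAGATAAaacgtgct
Elane and Mpo each hold 1 match to the PU.1 letters, Ctsg holds none of the 3 motifs, and Pf4 holds 1 of each. The PU.1 letters occur in 3.29% of all 27025 promoters of this length, in 3.29% of the 9877 matched to tested genes, in 6.81% of the 631 promoters matched to genes called large and higher, and in 2.85% of the 1156 matched to genes called large and lower. For the C/EBP letters the shares in the same order are 10.7%, 8.53%, 13.9% and 9.60%, and for the GATA letters 11.4%, 6.53%, 9.67% and 8.82%. A letter match is a description of sequence and shows no binding.

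Secondary and tertiary granule genes, made later in neutrophil maturation, had 16 of 20 tested members large and higher and 0 large and lower (median 6.66). Their summed level was 8334, 6608 and 19829 CPM in leukaemia replicates 1 to 3 and at most 709 CPM in HSCs. Olfm4, a marker of a neutrophil subset, showed the spread most, at 77.98, 134 and 591 CPM in leukaemia against 3 counts over the HSC libraries, a ratio of leukaemia to HSC of 10460.0 (3580.0 to 50750.0). Pglyrp1, an antibacterial granule protein, varied less, at 167, 128 and 220.1 against 12.9, 20.03, 19.1 and 16.03 CPM (3.34 ± 0.25, adjusted p = 1.7e-06). Stfa1, a stefin protease inhibitor, was at 974, 522 and 2124 CPM against 0, 0, 0.152 and 0 CPM, but it shares sequence with near-identical copies and its value is uncertain. Replicate 3 of leukaemia was the highest library for each of these 3 genes and the lowest for Cd34.

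Monocyte and macrophage genes were higher in the same libraries, 19 of 34 tested large and higher and 0 large and lower (median 3.75). Tyrobp, the adaptor DAP12 of activating receptors, was at 938, 497 and 698 against 9.31, 18.9, 11.9 and 16.2 CPM (5.66 ± 0.33, adjusted p = 4.0e-07). Ncf1, a subunit of the phagocyte oxidase, was at 1056, 705 and 901 against 21.98, 27.997, 18.2 and 14.2 CPM (5.43 ± 0.29, adjusted p = 2.4e-07). Fcgr3, a low-affinity Fc receptor, was at 301, 227 and 219 against 2.62, 1.23, 0.872 and 0.604 CPM (7.53 ± 0.46, adjusted p = 4.9e-07). Every leukaemia library lay above every HSC library for these genes. They were named for a small p among the large calls, so this separation is a description and no added support. Itgam (CD11b) and Ly6c2 were also higher, at 1017, 932 and 1154 against 22.4, 17.3, 13.5 and 30.3 CPM and 1976, 1087 and 1081 against 12.2, 10.8, 3.94 and 4.94 CPM. Itgam shares 72.4% of its transcript's 50-base windows with another gene, so its value is uncertain. The HSC gate was lineage-negative and the labels do not name its antibodies, so for such lineage markers the gate and the cell type cannot be told apart.

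**Figure D3:**
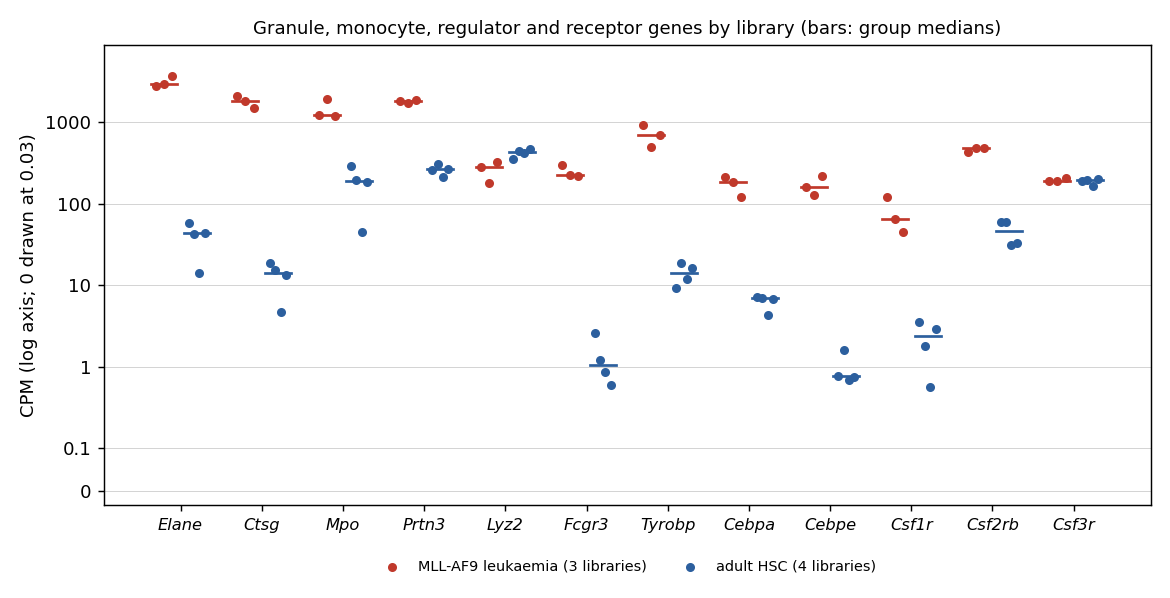
CPM of 12 granule, monocyte, receptor and myeloid regulator genes in each of 3 leukaemia (red) and 4 HSC (blue) libraries, on a log axis with 0 drawn at 0.03; bars are group medians. Elane, Ctsg, Cebpe, Fcgr3 and Csf1r are higher in leukaemia, Lyz2 lies slightly lower, and Csf3r overlaps between the groups.

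Of 34 myeloid regulators tested, 6 were large and higher and 4 large and lower (median 1.12), beside 6.95% and 12.4% of all genes tested. Cebpa, the factor that opens granulocyte and monocyte differentiation, was at 211, 187 and 121 against 7.22, 6.97, 4.32 and 6.87 CPM (4.77 ± 0.28, adjusted p = 3.9e-07). Cebpe, needed for secondary granules, was at 163, 129 and 219 against 0.779, 1.63, 0.682 and 0.754 CPM (7.45 ± 0.37, adjusted p = 1.5e-07). Gfi1, a repressor required for neutrophils, was at 463, 429.5 and 626 against 34.7, 79.1, 31.8 and 64.01 CPM (3.27 ± 0.34, adjusted p = 1.6e-05). Gfi1 and its paralogue Gfi1b, described above, thus lay in opposite directions. Irf8, a factor of monocytes and dendritic cells, was at 162, 137 and 47.2 against 15.6, 12.8, 10.8 and 5.85 CPM (3.35 ± 0.43, adjusted p = 7.6e-05), lowest in leukaemia replicate 3. Bach1 was large and higher (3.42 ± 0.29, adjusted p = 4.6e-06) and its relative Bach2, a repressor best known in lymphocytes, large and lower (-4.87 ± 0.61, adjusted p = 6.2e-05). Among Id proteins, which block helix-loop-helix factors, Id3 had 0 counts in leukaemia against 19.8, 35.9, 11.4 and 5.58 CPM, at least 303-fold lower, while Id1 and Id2 differed by 1.19 ± 0.39 and 0.40 ± 0.30. Myc was lower in leukaemia, at 82.8, 122 and 127 against 770.4, 919, 621 and 756 CPM, just under the limit (-2.79 ± 0.25, adjusted p = 5.3e-06).

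Receptors for growth factors lay in both directions. Of 34 tested, 4 were large and higher and 10 large and lower (median -0.65), beside 6.95% and 12.4% of all genes tested. The 4 higher genes were receptors of myeloid cytokines. Csf1r, the receptor of macrophage colony-stimulating factor, was at 121, 65.9 and 44.7 against 3.54, 1.83, 0.569 and 2.94 CPM (5.11 ± 0.55, adjusted p = 2.3e-05). Csf2ra and Csf2rb, both chains of the GM-CSF receptor, were at 632, 503 and 486 against 63.1, 79.04, 27.6 and 18.6 CPM and at 434, 487 and 479 against 59.6, 60.05, 31.2 and 32.7 CPM. Their differences were 3.52 ± 0.45 and 3.34 ± 0.28 (adjusted p = 6.8e-05 and 3.7e-06), and Csf2rb2, a copy used with interleukin 3, differed by 3.64 ± 0.43. Csf3r, the G-CSF receptor, did not pass the test, at 193, 189 and 211 against 189.8, 197, 165 and 203 CPM (0.06 ± 0.17, adjusted p = 0.761). Flt3, a receptor of early progenitors, was lower and under the limit (-1.69 ± 0.35, adjusted p = 0.00167). The lower genes besides Tek included Epor, the erythropoietin receptor, at 0.273, 0.0613 and 0.286 against 17.3, 20.8, 19.3 and 17.4 CPM (-6.46 ± 0.48, adjusted p = 1.7e-06), and Il27ra at 0.683, 0.613 and 0.630 against 84.5, 70.9, 92.2 and 91.6 CPM (-7.04 ± 0.27, adjusted p = 5.5e-08).

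Adhesion and homing genes went both ways, 14 of 42 tested large and higher and 9 large and lower. Over all genes tested the shares were 6.95% and 12.4%. The beta-2 integrin chain Itgb2 was at 1134, 869 and 965 against 50.8, 68.8, 54.3 and 71.03 CPM (4.01 ± 0.22, adjusted p = 2.7e-07) and its partner Itgal at 258, 322 and 304 against 23.2, 25.3, 22.7 and 34.6 CPM (3.48 ± 0.21, adjusted p = 5.4e-07). These chains form LFA-1, which leucocytes use to leave the blood. Itga2b, the platelet integrin CD41 that also marks some HSCs, was at 1.78, 1.35 and 2.23 against 279, 372, 234 and 311 CPM (-7.38 ± 0.31, adjusted p = 8.0e-08). Emcn, endomucin, a sialomucin shared by endothelium and HSCs, was at 0.0683, 0 and 0.172 against 39.9, 46.2, 27.9 and 51.9 CPM (-8.88 ± 0.56, adjusted p = 6.3e-07).

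Megakaryocyte and platelet genes, part of which HSCs express as a lineage bias, had 20 of 27 tested members large and lower and 0 large and higher (median -6.42). Pf4, platelet factor 4, was at 0.137, 0 and 0.115 against 44.9, 116, 61.3 and 88.9 CPM (-9.78 ± 0.62, adjusted p = 6.3e-07). Vwf, von Willebrand factor, was at 2.60, 2.27 and 1.83 against 104, 25.1, 96.5 and 29.7 CPM (-4.84 ± 0.60, adjusted p = 5.8e-05) and was lower in HSC replicates 2 and 4 than in replicates 1 and 3. Mmrn1, multimerin 1, had 0 counts in leukaemia against 422, 105, 389 and 129 CPM, at least 4172-fold lower. Gata1, the master factor of red cells and megakaryocytes, was at 0.205, 0.245 and 0.172 against 36.95, 46.1, 37.2 and 59.9 CPM (-7.73 ± 0.38, adjusted p = 1.6e-07). Its cofactor Zfpm1 (FOG1) was at 2.26, 2.58 and 1.66 against 211, 244, 162 and 169.9 CPM (-6.51 ± 0.29, adjusted p = 8.8e-08). The groups did not overlap for any of these 5 genes. The adult globin genes Hba-a1, Hba-a2, Hbb-b1 and Hbb-b2 were listed at 0 in every library, and since they are near-identical copies these zeros are uncertain.

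In the erythroid list 11 of 14 tested members were large and lower and 1 large and higher. Car2, carbonic anhydrase 2, was among the largest, at 0.342, 0.429 and 0.458 against 1684, 1186, 1923 and 1328 CPM (-11.84 ± 0.39, adjusted p = 3.8e-08). Tfrc, the transferrin receptor that dividing cells use to take up iron, was the member called higher, at 249, 315 and 504 against 42.2, 25.5, 30.4 and 45.3 CPM (3.31 ± 0.30, adjusted p = 6.0e-06). Tfrc was at 2.99, under the limit, without leukaemia replicate 3. Markers of other cells that a sort could hold were counted as well. Over all genes tested 6.95% were large and higher and 12.4% large and lower. B and early lymphoid genes had 2 of 14 tested members large and higher and 2 large and lower, T and NK genes 0 and 2 of 8, mast cell and basophil genes 1 and 6 of 11, and stromal and endothelial genes 0 and 6 of 12. Summed T and NK genes reached 29.1 to 36.4 CPM in leukaemia and 167 to 324 CPM in HSCs, Gzma being at 0 in both. The endothelial genes Plvap and Sparc were highest in HSC replicate 2, at 8.25, 46.5, 3.72 and 13.8 CPM and at 6.69, 33.3, 1.10 and 18.2 CPM in replicates 1 to 4. Plvap differed by -3.58 ± 0.81, and by -2.52, under the limit, without that replicate. The part of such cells in the results was not tested.

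Division genes were higher by moderate amounts. Of 33 mitosis genes tested, 27 were higher and 1 lower by adjusted p, beside 30.2% and 32.5% of all genes tested, and 1 was large (median 1.38). That gene was Mki67, the proliferation antigen, at 1461, 1339 and 1288 against 117, 133, 60.2 and 61.4 CPM (3.87 ± 0.32, adjusted p = 3.6e-06). Of 43 DNA replication genes, 23 were higher and 1 lower by adjusted p and 0 were large (median 0.89). Their sum was 8159.9 to 8899 CPM in leukaemia and 3445 to 7816 CPM in HSCs, lowest in HSC replicate 1 and highest in replicate 4. The D cyclin Ccnd2 was a sharp exception, at 2.12, 2.08 and 2.69 against 345, 506, 324 and 219.7 CPM (-7.24 ± 0.37, adjusted p = 1.9e-07).

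Of 7 inhibitors of cyclin-dependent kinases tested, 1 was large and higher, beside 6.95% of all genes tested. By adjusted p 4 were higher and 1 lower, beside 30.2% and 32.5%. Cdkn2a, which encodes p16 and ARF, was at 4.31, 3.31 and 4.41 CPM in leukaemia and at 0 counts in all 4 HSC libraries, at least 149-fold higher. Cdkn1b (p27) was at 70.4, 93.8 and 142 against 13.4, 22.9, 7.58 and 7.96 CPM, just under the limit (2.97 ± 0.40, adjusted p = 1.1e-04), and Cdkn2c (p18) at 147, 126 and 124 against 24.7, 30.1, 26.7 and 37.7 CPM (2.15 ± 0.20, adjusted p = 8.0e-06). Cdkn1c (p57), which keeps HSCs quiescent, was lower, at 29.3, 16.6 and 27.9 against 59.3, 48.3, 58.2 and 28.6 CPM with overlapping groups (-0.98 ± 0.31, adjusted p = 0.0169).

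Genes of antigen presentation and of the interferon response were mostly lower. In the MHC class I list 4 of 18 tested members were large and lower and 2 large and higher, with 12 lower by adjusted p (median -1.38). The shares over all genes tested were 12.4%, 6.95% and 32.5%. B2m, the light chain of every class I molecule, was at 422, 393 and 347 against 3028, 3860.4, 3599 and 3424 CPM (-3.17 ± 0.22, adjusted p = 1.2e-06). Nlrc5, the transcriptional activator of class I genes, was at 3.21, 7.60 and 3.32 against 89.7, 67.7, 57.5 and 47.4 CPM (-3.80 ± 0.39, adjusted p = 1.6e-05). H2-K1, a classical heavy chain, was at 261, 285 and 317 against 2164, 3468, 2868 and 3445 CPM (-3.37 ± 0.26, adjusted p = 2.2e-06). The 2 higher members, H2-Q8 and H2-Q10, belong to a family of near-identical genes and are uncertain, and they were low, with H2-Q10 at 5.19, 2.82 and 28.4 CPM in leukaemia. Of 42 interferon response genes 11 were large and lower, 0 large and higher, and 28 lower by adjusted p (median -1.86). Oasl2, an antiviral protein of the 2-5A synthetase family, was at 2.46, 4.17 and 1.15 against 173, 108, 119 and 149.9 CPM (-5.73 ± 0.43, adjusted p = 1.9e-06). Iigp1, a GTPase against intracellular pathogens, was at 0.342, 0.368 and 0.115 against 94.4, 37.5, 82.6 and 28.1 CPM (-7.78 ± 0.65, adjusted p = 3.8e-06).

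Immediate early genes, the first transcripts made after signalling and also after cell handling, were lower as well. Of 31 tested, 6 were large and lower, and 19 were lower and 3 higher by adjusted p (median -2.12). Over all genes tested the shares were 12.4%, 32.5% and 30.2%. Under upper quartile scaling 10 of the immediate early genes were large and lower. Dusp2, a nuclear MAP kinase phosphatase, was at 34.7, 59.2 and 58.97 against 788, 894, 694 and 425 CPM (-3.78 ± 0.33, adjusted p = 5.5e-06). Nr4a1, an orphan nuclear receptor, was at 27.5, 44.8 and 66.5 against 1959, 1295, 708 and 89.5 CPM (-4.45 ± 0.87, adjusted p = 0.00134), with HSC replicate 4 far below the other HSC libraries. Fos was at 295, 827 and 749 against 3959.9, 3892, 3285 and 1696 CPM, under the limit (-2.36 ± 0.42, adjusted p = 6.4e-04). Heat shock transcripts also varied among HSC libraries, Hspa1a, which shares 66.3% of its windows with another gene, being at 15.96, 26.1, 360.4 and 278 CPM, and the part of cell handling in these genes was not tested.

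In the TGF-beta and BMP pathway, which restrains HSC division, 12 of 30 tested members were large and lower and 0 large and higher (median -1.40). Over all genes tested the shares were 12.4% and 6.95%. Tgfbr3, the betaglycan co-receptor, was at 0.205, 0.429 and 0.573 against 103, 44.2, 93.3 and 29.95 CPM (-7.35 ± 0.62, adjusted p = 4.0e-06). Eng, endoglin, was at 4.51, 7.42 and 6.30 against 159.6, 145, 156 and 155 CPM (-4.66 ± 0.24, adjusted p = 1.9e-07). Smad1, a transducer of BMP signals, was at 0.615, 0.307 and 0.401 against 122, 83.1, 131 and 131 CPM (-8.05 ± 0.35, adjusted p = 8.0e-08). The TGF-beta signalling receptors differed less, Tgfbr1 by 1.12 ± 0.23 and Tgfbr2 by -1.33 ± 0.21. BMP and activin receptors lay apart, Acvr1 being large and lower at -5.96 and Bmpr2 lower at -2.87. Bmpr1a differed by -0.85 and Acvr1b by 2.0. Of 33 regulators of kinase and cytokine signalling 3 were large and higher and 7 large and lower, beside 6.95% and 12.4% of all genes. Cish and Socs2, both induced by STAT5 and feeding back on cytokine receptors, were at 2.80, 3.56 and 4.18 against 87.4, 100.3, 103 and 165 CPM and 0.0683, 0.184 and 0.344 against 20.9, 39.3, 13.9 and 27.7 CPM (-5.01 ± 0.32 and -6.92 ± 0.59, adjusted p = 6.3e-07 and 4.5e-06). Spry2, a feedback inhibitor of RAS signalling, lay the other way (3.97 ± 0.31, adjusted p = 2.4e-06).

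In the BCL2 family, which controls mitochondrial cell death, 6 of 16 tested were large and higher and 0 large and lower, against a median of 0.55. Over all genes tested the shares were 6.95% and 12.4%. Bak1, a pore-forming killer protein, was at 172, 185 and 184 against 2.09, 8.34, 1.33 and 5.13 CPM (5.41 ± 0.54, adjusted p = 1.3e-05). Pmaip1 (NOXA), a BH3-only trigger of death, was at 183, 443 and 388 against 6.34, 0.232, 0.796 and 1.21 CPM (7.30 ± 0.90, adjusted p = 6.4e-05), and Bmf, of the same class, differed by 3.37 ± 0.42 (adjusted p = 5.5e-05). The large members thus included 3 genes that promote death. Bcl2l2, which protects cells, was large and higher too, at a log2 difference of 3.64. Bcl2a1a and Bcl2a1b, which also protect cells, were higher as well, but they are near-identical copies and are uncertain. Among the 10 tested members that share little sequence with other genes, 3 were large and higher, namely Bak1, Pmaip1 and Bmf. Bcl2l2 is outside those 10, so its value is uncertain as well.

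Genes of the fetal blood programme and of imprinted growth control held some of the sharpest contrasts. Lin28a, an RNA-binding protein that blocks let-7 maturation in embryonic cells, was at 75.4, 65.4 and 87.9 CPM in leukaemia and had 0 counts in all 4 HSC libraries, at least 2840.0-fold higher. It was also at 0 in the 4 PRDM16-KO-labelled HSC libraries and at 81.1, 80.6 and 66.5 CPM in the 3 PRDM16-KO-labelled leukaemia libraries. Bcl11a, a zinc finger factor that silences fetal globin, was lower, at 0.478, 2.33 and 2.40 against 184, 156, 122 and 89.6 CPM (-6.29 ± 0.51, adjusted p = 3.3e-06). Among imprinted genes 4 of 20 tested were large and higher and 5 large and lower, beside 6.95% and 12.4% of all genes tested. Igf2r, the receptor that clears IGF2, was at 198, 528 and 526 against 21.3, 6.44, 18.3 and 15.7 CPM (4.76 ± 0.46, adjusted p = 1.0e-05), and Ndn, necdin, had 0 counts against 37.9, 28.96, 54.02 and 26.3 CPM, at least 589-fold lower. Grb10, an adaptor that dampens insulin receptor signalling, was at 1.91, 3.31 and 1.20 against 99.7, 35.9, 125 and 80.9 CPM (-5.32 ± 0.52, adjusted p = 1.1e-05).

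Among DNA methylation enzymes, Tet2 and Tet1 lay in opposite directions; both oxidise methylcytosine. Tet2 was at 173, 211 and 172 against 39.2, 20.03, 18.8 and 12.9 CPM (3.03 ± 0.34, adjusted p = 2.7e-05) and Tet1 at 3.28, 4.23 and 1.15 against 79.5, 51.6, 44.1 and 32.7 CPM (-4.17 ± 0.48, adjusted p = 3.6e-05). Dnmt3l, a catalytically inactive cofactor best known from germ cells, was at 35.5, 19.3 and 17.6 against 0.425, 0.598, 0.152 and 1.24 CPM (5.31 ± 0.59, adjusted p = 2.8e-05). Of 30 Polycomb and chromatin regulators 1 was large and higher (Phf19, 3.10 ± 0.33) and 2 large and lower (Cbx2, -3.13 ± 0.35, and Cbx6, -4.09 ± 0.38). Over all genes tested the shares were 6.95% and 12.4%. Tet2, Phf19 and Cbx2 stood near the limit. Without HSC replicate 4 they were at 2.74, 2.79 and -2.89, Tet2 was also under the limit without leukaemia replicate 2 and HSC replicates 2 and 3 (2.95, 2.96 and 2.93), and Phf19 without HSC replicate 1 (2.99).

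Metabolic and detoxification genes differed by single members more than by lists. Hk3, the hexokinase of myeloid cells, was at 1199.9, 1035 and 1007 against 85.2, 107, 66.4 and 107 CPM (3.56 ± 0.23, adjusted p = 7.0e-07). Ldhb, the lactate dehydrogenase chain of oxidative tissue, was at 0.888, 0.491 and 0.229 against 119, 112, 145 and 121 CPM (-7.88 ± 0.39, adjusted p = 1.4e-07). It shares 27.0% of its transcript's 50-base windows with another gene, so its value is uncertain. Gsr, glutathione reductase, was at 1191, 1342 and 2139.6 against 115, 103, 143 and 167 CPM (3.56 ± 0.28, adjusted p = 2.4e-06). Aldh1a1, the aldehyde dehydrogenase of retinoic acid synthesis, had 2 counts in leukaemia against 103, 91.7, 124 and 65.1 CPM, a ratio of 2320.0 (642 to 19160.0). Of 73 nuclear oxidative phosphorylation genes tested 2 were large, both lower, and of 76 mitochondrial ribosomal protein genes 0 were. Of these 76, 26 were lower and 1 higher by adjusted p, beside 32.5% and 30.2% of all genes tested.

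Outside the lists, the largest differences included genes with no textbook role in blood. Hpgd, which degrades prostaglandin E2, was at 1097, 1079 and 911 CPM in leukaemia against 0.354, 0.664, 0.417 and 1.17 CPM (10.62 ± 0.42, adjusted p = 6.3e-08). Sgms2, sphingomyelin synthase 2, was at 456, 446 and 574 against 0.177, 0, 0.796 and 0.0754 CPM (10.88 ± 0.72, adjusted p = 7.9e-07). Ces1d, a carboxylesterase best known from liver and fat, was at 175, 188 and 224 against 0, 0, 0.265 and 0.113 CPM (10.99 ± 0.57, adjusted p = 2.0e-07). Pax8, a paired-box factor of thyroid and kidney, was at 64.1, 50.3 and 59.5 CPM against 1 count in HSCs, a ratio of leukaemia to HSC of 6435 (1154 to 254300.0). On the HSC side, Myct1 had 1 count in leukaemia against 237, 235, 202 and 175 CPM, a ratio of HSC to leukaemia of 10320.0 (1852 to 407600.0). Gimap5, a GTPase of lymphocyte and stem cell survival, had 0 counts against 85.3, 89.2, 72.6 and 58.7 CPM, at least 1242-fold lower.

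Sequence copies and table differences limit some calls. Ppia and Gapdh, abundant in all cells, were at 9.64, 11.5 and 12.7 against 617, 1307, 1014 and 1355 CPM and 23.6, 15.4 and 22.9 against 279.7, 598, 436 and 630.3 CPM, and 16 of 78 ribosomal protein genes tested were large and lower with none higher. These genes have many processed pseudogenes, the counting of reads with several matches is not given in the sources used here, and they are not read as findings. Of the 13 ribosomal protein genes with at most 10% of their windows shared and no overlap with a name found in 1 table only, 0 were large, a check chosen after seeing the data. Among genes with over 50% of their transcript's 50-base windows shared with another gene, 9.54% were large and higher and 16.2% large and lower, against 7.24% and 13.1% among genes with none. The shares did not rise steadily between these classes. They were 6.26% and 10.7% with up to 10% of windows shared, and 6.03% and 11.9% with 10% to 50%. Evi2b and Trpc2 were among the largest higher calls but overlap read-through gene names that only the HSC table lists, so their near-zero HSC counts are uncertain. With genes split into 5 equal groups by transcript length, the median difference ran from -0.50 in the shortest to 0.65 in the longest, and by GC content from 0.40 in the lowest to -0.38 in the highest. With both trends removed, a check chosen after seeing the data, 2354 of 12638 genes were large, 805 higher and 1549 lower. B2m, H2-K1, Bach1, Mki67, Pbx3, Tet2 and Tfrc were then under the limit, at -2.74, -2.89, 2.86, 2.83, 2.71, 2.02 and 2.68. Xist, the RNA of the inactive X chromosome, was higher in leukaemia (3580.1, 5018 and 3274 against 386, 56.99, 46.5 and 123 CPM) and 4 Y-linked transcripts were lower, so sex and cell type cannot be told apart either.

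**Figure D4:**
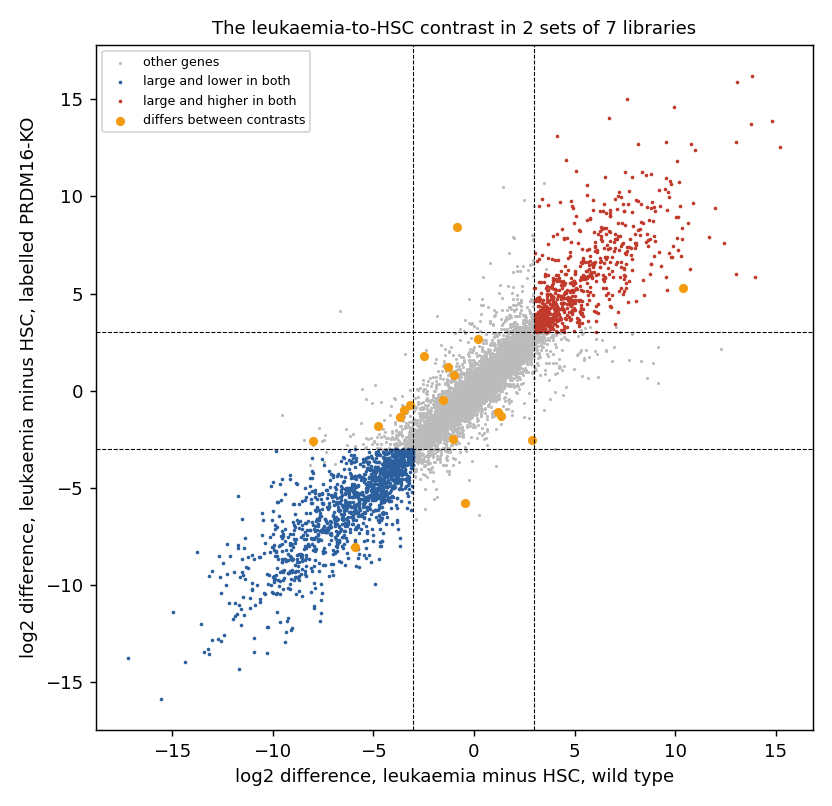
Log2 difference of leukaemia minus HSC for 12716 genes in the wild-type libraries (horizontal) and in the PRDM16-KO-labelled libraries (vertical); points are genes, red for called large and higher in both, blue for large and lower in both, orange for the 18 genes that differ between the contrasts, and grey for the rest. Dashed lines mark log2 differences of 3 and -3.

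The contrast was then measured in the 7 libraries labelled PRDM16-KO. Prdm16 was read first. It stood at 1.16, 0.858 and 0.515 CPM in wild-type leukaemia and 48.03, 21.8, 36.01 and 10.3 CPM in wild-type HSCs (-5.11 ± 0.60, adjusted p = 4.2e-05). In the libraries labelled KO it was at 0, 0.108 and 0.0603 CPM in leukaemia and 38.8, 23.9, 38.4 and 12.7 CPM in HSCs. The 4 HSC libraries labelled KO thus held Prdm16 counts like those of the wild type, and directions drawn from them are of the label. A count over the whole gene does not test a deletion of part of it. Of 12892 genes tested in this contrast 2431 (18.9%) were large, 949 (7.36%) higher and 1482 (11.5%) lower. Of the 922 genes large and higher in the wild type, 678 (73.54%) were also large and higher here, which is 71.44% of the 949. Of the 1645 large and lower, 1291 (78.48%) were again large and lower, which is 87.11% of the 1482. Of the higher calls 0 were large in the opposite direction, and of the lower calls 1 was. That gene, named after its values were seen, was Tnfrsf9 (4-1BB), a receptor of activated lymphocytes. It had 0 counts in wild-type leukaemia against 0.425, 0.731, 0.644 and 0.415 CPM in HSCs, and 2.66, 2.16 and 1.57 against 0.468, 0, 0 and 0 CPM in the libraries labelled KO, with an interaction adjusted p of 0.13. Across 12716 genes Pearson's r of the log2 differences was 0.938 and Spearman's rho 0.933, over genes that share the same preparation difference and are not independent replicates.

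Of 30 HSC surface genes 29 were below HSCs in these libraries, against 30 in the wild type, and of 26 HSC transcription factors 23, against 22. Hlf differed by -8.48 ± 0.46, Mecom by -7.44 ± 0.72, Gata2 by -7.40 ± 0.86 and Meis1 by -1.92 ± 0.30, and Lyl1 by 4.12 ± 0.12. Beside 11.5% of all genes large and lower and 7.36% large and higher, 15 of 26 HSC transcription factors were large and lower and 1 higher, of 30 surface genes 24 were lower and 0 higher, and of 26 megakaryocyte genes 18 and 0. Hoxa9 differed by 1.39 ± 0.17, Hoxa6 by 3.06 ± 0.39 and Pbx3 by 3.76 ± 0.52. Primary granule genes had 10 of 16 large and higher, and Mpo was at 4619, 3867 and 38409 against 160.05, 47.9, 125 and 136 CPM (7.06 ± 0.98, adjusted p = 3.3e-04), replicate 3 of leukaemia being far above the others. Secondary granule genes had 8 of 20 large and higher, against 16 of 20 in the wild type, and their median was 2.19. That difference in counts is not a test between the contrasts, and 0 of this list's members passed the interaction.

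The test of the difference between the contrasts, in which preparation drops out, passed for 18 of 13783 genes (0.131%), with 1523 at an unadjusted p under 0.05. Zfp783, a zinc finger gene, was at 23.6, 27.8 and 33.6 CPM in wild-type leukaemia and 0.786, 0.758 and 0.542 CPM in leukaemia labelled KO, while HSCs gave 44.4, 44.8, 30.9 and 31.3 and 43.3, 41.6, 30.9 and 36.8 CPM. The interaction was -5.29 ± 0.34 (adjusted p = 2.5e-06). Gypc, glycophorin C, differed by -3.69 ± 0.26 in the wild type and -1.35 ± 0.11 in the libraries labelled KO (2.39 ± 0.25, adjusted p = 6.5e-04). Zc3h12c, an RNase of the Regnase family, differed by 2.88 ± 0.51 and -2.53 ± 0.73, in opposite directions (-5.38 ± 0.94, adjusted p = 0.0343). Hemgn, a nuclear protein of erythroid and stem cells, was lower in both, by -5.90 ± 0.31 and -8.05 ± 0.23 (-2.10 ± 0.36, adjusted p = 0.0343). The count of 18 rested on single libraries. It was 82 without the leukaemia library KO replicate 3 and 33 without wild-type HSC replicate 1. It was 8 and 9 without wild-type leukaemia replicates 1 and 2, 8 without KO leukaemia replicate 2, 6 and 10 without wild-type HSC replicates 2 and 3, and 7, 9 and 5 without KO HSC replicates 2, 3 and 4. Of the 14 fits that leave out 1 library, Zfp783 and Gypc passed in 14 and Zc3h12c and Hemgn in 4 each. DESeq2 passed 189 genes.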

How the data were processed

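Poly-A RNA was sequenced from 32 mouse libraries, of which 14 are used. The authors deposited whole-number counts per gene symbol in 1 table for leukaemia and 1 for HSCs. Per the submitters' processing notes, bcl2fastq 2.17, TopHat, DESeq and the mm9 build were used. The counting tool, the annotation, the strand setting and the treatment of reads with several matches are not given in the sources used here. The tables were joined on 22003 shared symbols, and 1281 leukaemia and 1948 HSC symbols listed in 1 table only were left out, as were 92 spike-in rows that hold 0 counts.

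Counts were tested with edgeR 4.0.16 (R 4.3.3): TMM scaling, filterByExpr, a robust quasi-likelihood fit per contrast and Benjamini-Hochberg adjustment over all genes tested. The leukaemia and HSC groups were fitted alone, and the interaction over 14 libraries. The common biological coefficient of variation was 0.346 in the wild-type contrast. On simulated data with 13042 genes for the wild-type contrast, 93% of 100 genes changed 16-fold and 0% of 100 changed 4-fold were called large, 85% of the latter had an adjusted p under 0.05, and 1 unchanged gene was called. No 2 libraries agreed within sampling noise. The gene lists and the rule for named genes were chosen with earlier results of these data known. Some lists were open to naming in full. From the other lists the rule took only a few members with the smallest p, from those called large where any were. Genes named from those lists are therefore extremes and not typical members. The rule also took the 15 largest non-overlapping differences per direction with a mean of at least 30 CPM. Genes passing the interaction and the 5 most abundant genes per group completed it. Alternatives included DESeq2 1.42.0, limma 3.58.1 (voom), other scaling and filters, leaving out each library, a replicate block, and 2 added after seeing the data. A few genes are not reported here.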

Additional observations from a re-analysis of the deposited data

Results flagged for a closer look

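Over the named genes, 8 of 138 sets of 4 wild-type HSC libraries tested held 1 library far from the others, with a gap to its neighbour, as a share of the group's range, above Dixon's 95% critical value. Chance flags about 1 in 20 groups where values vary continuously. A group with counts in 1 library alone is always flagged by this rule, which is the case for Olfm4, Stfa1 and Pax8. The HSC libraries labelled PRDM16-KO were tested for Mpo, Prdm16 and Zfp783 alone. In replicate 1, Pmaip1 was high at 6.34 CPM (others 0.232 to 1.21) and Olfm4 at 0.106 CPM (others 0). In replicate 2, Hoxb6 was high at 9.997 CPM (others 3.26 to 4.30) and Cebpe at 1.63 CPM (others 0.682 to 0.779), while Tgfbr2 was low at 82.3 CPM (others 124 to 131). In replicate 3, Cebpa was low at 4.32 CPM (others 6.87 to 7.22), and Stfa1 and Pax8 had counts in that library alone, at 0.152 and 0.0379 CPM. For each gene named here except Hoxb6 and Tgfbr2, every HSC library remained below every leukaemia library.

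For 4 genes named in the text the contrast itself differed between the wild-type libraries and those labelled PRDM16-KO by edgeR's interaction test. The interaction was -5.29 for Zfp783, -5.38 for Zc3h12c, 2.39 for Gypc and -2.10 for Hemgn on the log2 scale.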

How the results depend on the processing

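The count of 2567 genes called large in the wild-type contrast moved to 1132 with a mean of at least 10 CPM required and to 3877 with a log2 limit of 2, and the 2431 of the contrast labelled PRDM16-KO moved to 1117 with the 10 CPM filter. Without each library in turn the counts ran from 2396 to 2499 and from 2287 to 2489. The 18 genes of the interaction became 189 with DESeq2, 28 with no filter on low counts and 5 to 82 without each library. The replicate numbers share only a number between leukaemia and HSCs (correlations of deviations of same-numbered wild-type libraries were -0.145, -0.013 and 0.0592). A fit with the replicate block gave 2652, 2336 and 10 genes. Upper quartile scaling lowered the median log2 difference of all genes by 0.24 (-0.284 against -0.043). Of 109 named genes called large, 95 kept the call in each of the 14 settings run for single genes that gave them a value. No named gene turned direction in them. For lists only the number of large calls was compared between settings, and it moved in 19 of 500 comparisons.

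Depth, at 16353584 counts or more per library, limits ratios of genes with 0 to 3 counts in a group to bounds and intervals. Preparation, sex, count table and cell type cannot be told apart, so the results are differences between these 2 sets of libraries.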

Other observations

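Several gene groups outside the main account were counted as well. Over all genes tested 6.95% were large and higher and 12.4% large and lower. By adjusted p 30.2% were higher and 32.5% lower. In the basement membrane and matrix list 10 of 25 tested genes were large and lower and 4 large and higher in leukaemia. In the list of dendritic cell and MHC class II genes 3 of 16 were large and lower, 1 large and higher and 11 lower by adjusted p. Of 31 genes of the MYC network and ribosome biogenesis 0 were large and higher, 1 large and lower, and 16 higher by adjusted p, while Myc itself was lower. Of 20 aminoacyl-tRNA synthetases 0 were large, and 9 were higher and 2 lower by adjusted p. Of 38 proteasome subunits 1 was large and lower. The MYC network, synthetase and proteasome lists had 3.23%, 0% and 2.63% of tested members large, below the 19.3% of all genes tested.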
